A study of Mus musculus with 10 samples.

Results

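The genes described here are 40 genes of the autophagy machinery, chosen by name as core members of the pathway, with Fyco1 included because of earlier results of these data. All 40 are listed in each library, among 32531 gene symbols in all, and 39 had enough reads for a test among 14989 genes. Ribosome-bound RNA of cholinergic neurons was sequenced from adult mice after cocaine self-administration, from yoked control mice and from mice after saline self-administration, with 3 immunopurified libraries in each group. A single input library holds total RNA of the whole striatum of saline animals. All animals carry the Chat-EGFP/Rpl10a transgene (line Chat-TRAP DW167), in which the control region of Chat, the enzyme that makes acetylcholine, drives a fluorescent tag on the ribosomal protein Rpl10a. Age is given no closer than adult, the treatment of the yoked animals is not spelled out, and pooling of animals is not mentioned. The p-values therefore measure the spread between these libraries, which may be technical.

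Autophagy is the route by which a cell encloses its own cytoplasm in a double membrane, the autophagosome, and delivers it to lysosomes. An initiation kinase and a lipid kinase start the membrane, a pair of ubiquitin-like conjugation steps attaches Atg8-family proteins to it, receptors load cargo, and motor adaptors carry the finished vesicle to the lysosome. In neurons autophagosomes form far out in axons and travel to the cell body, and basal autophagy is needed for neurons to survive. Fyco1 links autophagosomes, through LC3 and the small GTPase Rab7, to kinesin motors.

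Counts over genes ran from 24526765 to 75220922 per immunopurified library and came to 40912230 in the input. Cocaine library 2 was the deepest and differed most from the other libraries of its group, by a median of 0.476 on the log2 scale per gene, against 0.271 to 0.403 for the other 8. For 34 of the 39 tested autophagy genes the highest or the lowest of the 9 libraries was a library numbered replicate 2, as it was for 89.8% of all tested genes. Some of the values that these 3 libraries move are therefore given with and without them. A value given only once may also depend on them. As a check of the labelled cell type, 10 markers of cholinergic neurons summed to between 4267 and 5585 CPM (counts scaled to 1000000 gene counts per library) in the immunopurified libraries and 114 CPM in the input, and none of them was at 0 in the saline or cocaine group. The library labels carry the lane code 4 for cocaine and yoked, 3 for saline and 5 for the input, so a lane effect and a group effect cannot be told apart wherever saline or the input is compared with another group.

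Fyco1 lies on chromosome 9 at 123789500 to 123851899 (GRCm38.p6, reverse strand). The 250 bases before its start in RefSeq, at chr9:123851900-123852149, are shown because they hold a repeat that few promoters share. They read, with each copy of GGGAGTTGTAG in capitals:
Fyco1: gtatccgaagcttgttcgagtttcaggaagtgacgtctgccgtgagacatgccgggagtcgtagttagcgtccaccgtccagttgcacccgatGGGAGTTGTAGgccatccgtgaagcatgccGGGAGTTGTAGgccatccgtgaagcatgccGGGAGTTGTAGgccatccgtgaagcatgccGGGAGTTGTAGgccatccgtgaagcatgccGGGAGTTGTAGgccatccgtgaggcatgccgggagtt
These 250 bases hold 5 copies of GGGAGTTGTAG, each starting 30 bases after the one before it, and a sixth crosses the start of the gene. With both strands searched, 0.444% of 32851 RefSeq promoter windows hold the run at all, and this window of Fyco1 is the only 1 with 6 copies. The run was picked after the sequence had been seen, as the 11-base run with the most copies in it, so its count is a description.

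A second set is shown because Tfeb, a transcription factor of autophagy and lysosome genes and itself among the 40, is known to bind sites built around CACGTG. RefSeq promoter windows were matched for 34 of the 40 genes, and CACGTG, which reads the same on both strands, was found in those of Atg14, Atg3, Atg5, Atg7 and Lamp1. That is 12.2% of their 41 windows, where 7.15% of all windows hold it. The longer GTCACGTG, which contains it, was in 4 of the 41 windows of these genes (9.76%) and in 2.25% of all, on either strand. These shares rest on few windows and were not tested against each other. The bases just before the starts of Atg3 (chr16:45158719-45158828, forward strand) and Lamp1 (chr8:13159091-13159160, forward strand) read, with CACGTG in capitals:
Atg3: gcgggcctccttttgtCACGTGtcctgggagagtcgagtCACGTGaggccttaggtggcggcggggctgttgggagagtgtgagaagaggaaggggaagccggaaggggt
Lamp1: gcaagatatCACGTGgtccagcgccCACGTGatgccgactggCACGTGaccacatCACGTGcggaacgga
Atg3 has 2 copies and Lamp1 has 4 in the 250 bases before the start. The promoter of Fyco1 has none in the window searched.

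Most autophagy transcripts were at least as abundant in cholinergic ribosome RNA as in the whole striatum, and Fyco1 lay far below the input. The question of this comparison is how the genes are distributed between tagged cholinergic ribosomes and striatal tissue. Of 39 genes with at least 20 counts, 25 were above the input in all 3 saline immunopurified libraries, 11 were below it in all 3, and Lamp2, Ambra1 and Atg2b lay on both sides. Above the input in all 3 libraries were 64.1% of these genes and 35.8% of the 15888 genes measured. At least 2-fold higher in all 3 were 8 genes, where 12.1% of all measured genes were, and at least 2-fold lower were Fyco1 and Tfeb, where 23.1% of all were. The median log2 ratio was 0.51 for the autophagy genes (SD of the 3 library medians 0.152) and −0.19 for all genes. The input has no replicate, so these ratios carry no test. The autophagy genes were not matched for level or cell type with the 15888 genes. The ratios set ribosome-bound RNA of cholinergic neurons against total RNA of tissue. A difference between cell types and a difference in binding to ribosomes therefore cannot be told apart.

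The Atg8-family proteins, the small ubiquitin-like proteins that coat the autophagosome, had the highest ratios as a set. All 5 were above the input in all 3 saline libraries, with a median log2 ratio of 1.55. Map1lc3a, which encodes LC3A, measured 270, 203 and 233 CPM in saline libraries 1 to 3 and 41.5 CPM in the input, 5.66-fold higher (log2 ratio 2.49 ± 0.21, SD, n = 3). Gabarapl2 measured 36.4, 24.7 and 27.1 CPM in the saline libraries and 8.99 CPM in the input, a log2 ratio of 1.69 ± 0.29 (SD, n = 3). For Gabarap the saline libraries held 474, 444 and 398 CPM and the input 149 CPM (log2 ratio 1.55 ± 0.13, SD, n = 3). Even the lowest saline library was above the input for each of these 3 genes. Map1lc3b and Gabarapl1 had log2 ratios of 1.07 and 0.92. The family members are paralogs, and how reads shared between such copies were counted is not given in the sources used here.

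The conjugation machinery, which attaches those proteins to lipid, was also mostly above the input, with 8 of 10 measured genes above it in all 3 saline libraries and a median log2 ratio of 0.95. Atg7, the E1-like enzyme of both conjugation steps, measured 46.5, 86.5 and 47.7 CPM in the saline libraries and 17.7 CPM in the input (log2 ratio 1.70 ± 0.51, SD, n = 3). Atg4d, a protease that processes Atg8-family proteins, measured 8.32, 8.72 and 6.86 CPM in the saline libraries and 2.86 CPM in the input (log2 ratio 1.47 ± 0.18, SD, n = 3). Saline library 2 was the high one for Atg7, and the 3 saline libraries were close together for Atg4d. In yoked library 2, however, Atg4d measured 1.25 CPM, below the input. Atg12, the ubiquitin-like protein joined to Atg5, averaged 141 ± 11.9 CPM in saline libraries (SD, n = 3) and 59.1 CPM in the input. Atg4c, another Atg4 protease, went the other way, with 50.7, 38.5 and 52.0 CPM in the saline libraries and 69.2 CPM in the input. Atg16l1, the scaffold of the Atg12–Atg5 complex, was below the input in all 9 immunopurified libraries, while its paralog Atg16l2 was above it in all 3 saline libraries. Atg4a, also an Atg4 protease, had at most 1 count in every immunopurified library and 2 in the input, and was not tested.

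Initiation and nucleation genes lay on both sides of the input, with none of the 10 at least 2-fold away in all 3 saline libraries. Of the initiation kinase genes, Ulk1 and Ulk2, the kinases, and Atg13, their partner, had log2 ratios of 0.68, 0.71 and 0.31, and Rb1cc1, the large scaffold FIP200, of −0.26. The class III lipid kinase genes were mostly below the input, in all 3 saline libraries for 4 of 6, with a median log2 ratio of −0.34. Pik3r4, its regulatory subunit Vps15, measured 17.1, 38.2 and 17.6 CPM in the saline libraries and 42.0 CPM in the input (log2 ratio −0.90 ± 0.66, SD, n = 3). Saline library 2 alone was near the input for Pik3r4. Becn1, the Beclin 1 subunit, was above the input, at 54.2 ± 8.28 CPM in saline libraries (SD, n = 3) and 33.4 CPM in the input. Of the genes for membrane supply, Atg9a, the membrane protein of the seed vesicles, and Atg2a, a lipid transfer protein, had log2 ratios of 0.51 and 0.49, and the PI3P-binding proteins Wipi2 and Wipi1 of 0.83 and −0.18.

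The cargo receptors divided. Optn, optineurin, which loads damaged mitochondria, was 2.41-fold higher in saline immunopurified RNA, and Sqstm1, the receptor p62, 1.96-fold higher. Nbr1, a receptor related to p62, measured 70.2, 58.1 and 62.6 CPM in the saline libraries and 136 CPM in the input (log2 ratio −1.10 ± 0.14, SD, n = 3). All 9 immunopurified libraries were below the input for Nbr1.

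Of the genes for transport and the lysosome, Lamp1, a lysosomal membrane protein, and Rab7 were about as far above the input, with log2 ratios of 1.05 and 0.93. Fyco1 measured 7.03, 5.76 and 5.87 CPM in the saline libraries, against 47.3 CPM in the input (95% exact Poisson interval 45.3 to 49.5, counting error only), 7.61-fold lower (log2 ratio −2.93 ± 0.16, SD, n = 3). All 9 immunopurified libraries lay below the input for Fyco1, the cocaine group by 2.90-fold on average. Tfeb had few reads, with 14, 16 and 18 counts after cocaine, 12, 0 and 17 in yoked animals, 1, 13 and 6 after saline and 48 in the input. Its level in the input was 1.17 CPM (95% exact Poisson interval 0.865 to 1.56), and its treatment fold changes are not read here because single libraries hold so few counts; its mean ratio to the input is not given for the same reason.

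**Figure D1:**
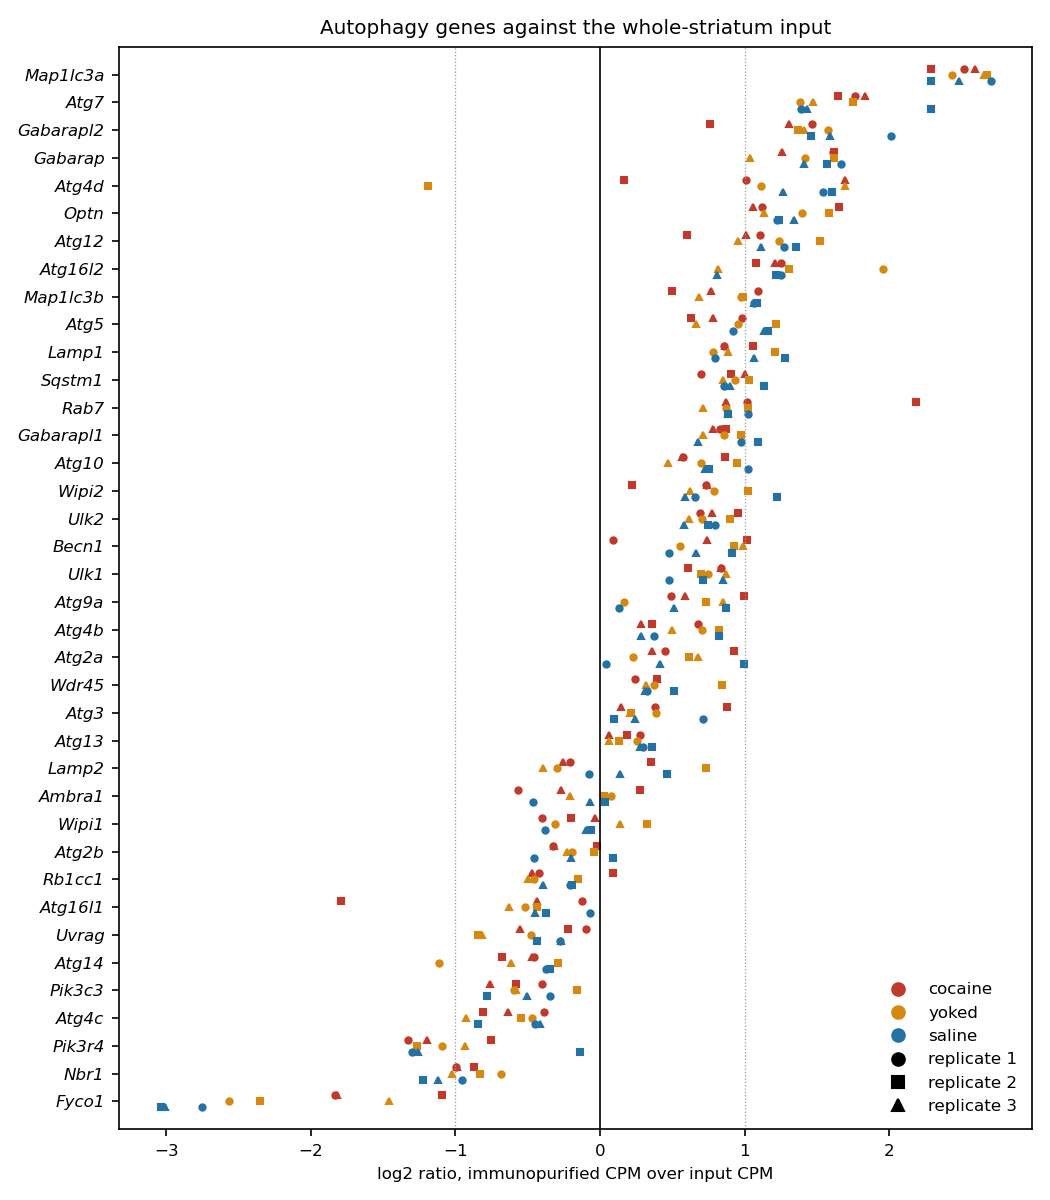
Log2 ratio of immunopurified CPM to input CPM for 38 autophagy genes, ordered by the mean over the 3 saline libraries (red: cocaine, orange: yoked, blue: saline; symbols give the replicate number; Tfeb and Atg4a have too few reads to be drawn; dotted lines mark 2-fold). Map1lc3a is highest at a saline mean of 2.49, Fyco1 is lowest at −2.93, and the red square far to the right in the row of Rab7 is cocaine library 2.

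The comparison of cocaine with saline self-administration asked which of these transcripts differ in cholinergic neurons of animals that took the drug. None of the 39 tested genes passed, and over all genes the share called was 0%, by edgeR's quasi-likelihood test with Benjamini-Hochberg adjustment (smallest adjusted p = 0.850). At an unadjusted p under 0.05 there was 1 autophagy gene, Fyco1, which is 2.56% of them, beside 5.28% of all genes (2.76% higher and 2.52% lower after cocaine). DESeq2 also called 0 genes. The levels were close: 36 of 39 fitted log2 fold changes lay within 0.5 of 0, which is 92.3% of these genes and 76.3% of all, and the median was −0.020 for these genes and 0.0049 for all genes. These genes were not matched for level with all genes, so the shares do not show that autophagy genes are steadier. The 95% interval of a single gene reached a median of 0.44 on the log2 scale to each side, before any adjustment for the number of genes tested. Differences larger than this could also go without a call, as Fyco1 did at a log2 fold change of 1.42.

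Fyco1 measured 13.3, 22.2 and 13.4 CPM in cocaine libraries 1 to 3, while yoked libraries held 7.98, 9.29 and 17.3 CPM and saline libraries 7.03, 5.76 and 5.87 CPM. All cocaine libraries and all yoked libraries lay above all saline libraries, and the cocaine and yoked groups overlapped. Averages were 16.3 ± 5.09 CPM after cocaine, 11.5 ± 5.02 CPM in yoked animals and 6.22 ± 0.704 CPM after saline (SD, n = 3 each). Without the libraries numbered replicate 2 they were 13.4, 12.6 and 6.45 CPM. The log2 fold change of cocaine over saline was 1.42 ± 0.35 (SE; 95% interval 0.67 to 2.17), with an unadjusted p of 0.00114 and an adjusted p of 0.850 in edgeR. This was the smallest p of all 14989 genes, and Fyco1 was included with that rank known, so its value is a description and not independent evidence. Fyco1 passed in edgeR without a filter on low counts (adjusted p = 0.0159), a fit that called 60 genes, and its adjusted p in the other alternatives lay between 0.506 and 0.9997. It was 1.04 on the log2 scale when the libraries numbered replicate 2 were left out, and over the single omissions it stayed between 1.10 and 1.56. Cxcr6, which RefSeq places within the span of Fyco1, had 0 counts in all 9 immunopurified libraries. Gm51700, which also overlaps Fyco1 in RefSeq, is not among the gene symbols counted, so its reads may not be told apart from those of Fyco1.

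Since Fyco1 is more abundant in whole striatum than in the purified RNA, markers of other striatal cells are given beside it. Cholinergic markers had a higher mean after cocaine than after saline in 2 of 10 cases. After cocaine 8 of 10 markers of spiny projection neurons and 8 of 9 of oligodendrocytes had a higher mean than after saline, as had 5 of 7 of astrocytes, 5 of 8 of microglia, 5 of 6 of endothelial and mural cells, 4 of 5 of cortical glutamatergic neurons and 6 of 7 of other striatal interneurons. The spiny neuron markers summed to between 671 and 1400 CPM after cocaine, between 922 and 1222 CPM in yoked animals and between 650 and 1553 CPM after saline. The oligodendrocyte markers summed to between 312 and 574 CPM after cocaine, between 326 and 513 CPM in yoked animals and between 248 and 531 CPM after saline. No marker of these lists was at 0 in all saline or in all cocaine libraries. Library by library, the marker levels followed Fyco1 in some cases and not in others. The lowest Fyco1 levels, in saline libraries 2 and 3, went with low ranks from the top among the 9 libraries, 7 and 9 for spiny neuron, 9 and 8 for oligodendrocyte, 7 and 9 for astrocyte and 8 and 7 for microglia markers. Yoked library 3, the second highest in Fyco1, ranked 1 for microglia markers and 4 for spiny neuron, oligodendrocyte and astrocyte markers. Cocaine library 1, with 13.3 CPM of Fyco1, ranked 1 for oligodendrocyte, astrocyte and cortical markers and 2 for spiny neuron markers, and cocaine library 3, just above it in Fyco1, ranked between 2 and 6 for spiny neuron, oligodendrocyte, astrocyte and microglia markers. Yoked libraries 1 and 2, below these in Fyco1, ranked between 3 and 6 for the same markers. Cocaine library 2, the highest in Fyco1, ranked 8, 7, 8 and 9 for spiny neuron, oligodendrocyte, astrocyte and microglia markers and 1 for other interneuron markers. Saline library 1 ranked 1 for spiny neuron and 2 for oligodendrocyte and astrocyte markers and held 7.03 CPM of Fyco1, below every cocaine library. Cortical markers ranked 1, 2 and 7 in cocaine libraries 1 to 3, 6, 4 and 9 in yoked and 5, 3 and 8 in saline libraries. Endothelial and mural markers ranked 6, 3 and 5 in cocaine, 8, 1 and 7 in yoked and 2, 9 and 4 in saline libraries. The part of these markers in the result for Fyco1 was not tested. In bulk libraries fewer cells of a type and less RNA per cell cannot be told apart.

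**Figure D2:**
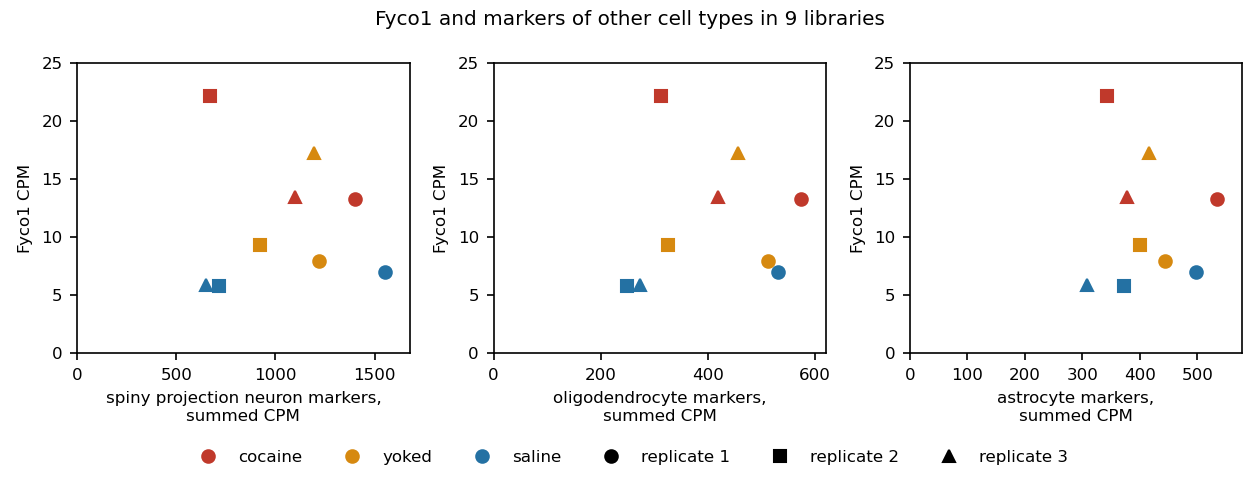
Fyco1 CPM (vertical axis) against the summed CPM of markers of spiny projection neurons, oligodendrocytes and astrocytes (horizontal axes) in the 9 immunopurified libraries (red: cocaine, orange: yoked, blue: saline; symbols give the replicate number). Cocaine library 2, with 22.2 CPM of Fyco1, lies at the low end of the spiny neuron markers, as do saline libraries 2 and 3, the lowest in Fyco1 with 5.76 and 5.87 CPM. Saline library 1, with 7.03 CPM, lies at the high end of these markers beside cocaine library 1, with 13.3 CPM.

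Rab7, the small GTPase to which Fyco1 binds on late endosomes and autophagosomes, measured 311, 699 and 280 CPM in cocaine libraries 1 to 3, while yoked libraries held 280, 312 and 252 CPM and saline libraries 313, 283 and 283 CPM. Cocaine library 2 held more than double the level of every other library, and the other 8 overlapped. The log2 fold change of cocaine over saline was 0.59 ± 0.28 (SE), with an adjusted p of 0.850 in edgeR. Without the libraries numbered replicate 2 it was −0.023, and without cocaine library 2 alone 0.015. The group means without replicate 2 were 296 CPM after cocaine, 266 CPM in yoked animals and 298 CPM after saline.

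Gabarapl2 had the second smallest p of these genes, with a negative sign. It measured 24.9, 15.3 and 22.2 CPM in cocaine libraries, against 26.9, 23.2 and 24.0 CPM in yoked and 36.4, 24.7 and 27.1 CPM in saline libraries. Cocaine library 1 and saline library 2 touched, at 24.9 and 24.7 CPM, so the groups overlapped. The log2 fold change of cocaine over saline was −0.49 ± 0.23 (SE), with an adjusted p of 0.850 in edgeR. All 5 Atg8-family genes had negative log2 fold changes, from −0.49 for Gabarapl2 to −0.016 for Map1lc3a, and none passed.

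Fold changes of the other roles between cocaine and saline were small, and none passed. Of the initiation kinase genes 3 had positive and 1 a negative log2 fold change, from −0.12 for Atg13 to 0.12 for Ulk2. Class III lipid kinase genes ran from −0.25 for Pik3r4 to 0.066 for Uvrag. Membrane supply genes ran from −0.26 for Wipi2 to 0.20 for Atg9a. Atg9a averaged 104 ± 19.8 CPM in cocaine libraries, against 91.9 ± 23.1 CPM in saline libraries (SD, n = 3 each). With the libraries numbered replicate 2 left out, Pik3r4 averaged 17.5 CPM after cocaine and 17.3 CPM after saline. Wipi2 then averaged 102 and 94.1 CPM, so its direction reversed, and Atg9a 92.3 and 80.0 CPM. Of 10 conjugation genes 3 were positive and 7 negative, from −0.39 for Atg4d to 0.15 for Atg3, the E2-like enzyme of LC3 lipidation. When replicate 2 was left out, Atg4d averaged 7.50 CPM after cocaine and 7.59 CPM after saline. Atg3 then averaged 52.9 and 62.2 CPM, so its direction reversed. Cargo receptors ran from −0.076 for Sqstm1 to 0.17 for Nbr1.

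Groups did not overlap for 3 of the 39 genes, which is 7.69%, where the share over all genes was 10.3%. Fyco1 was the only 1 with higher levels after cocaine (4.88% of all genes), and Atg12 and Atg14 had lower ones (5.4% of all genes). Atg14, the subunit that directs the lipid kinase to the forming autophagosome, measured 16.7, 14.3 and 16.5 CPM after cocaine and 17.7, 18.0 and 17.8 CPM after saline. Atg12 measured 127, 89.6 and 119 CPM after cocaine and 143, 151 and 128 CPM after saline, with cocaine library 1 and saline library 3 almost level.

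**Figure D3:**
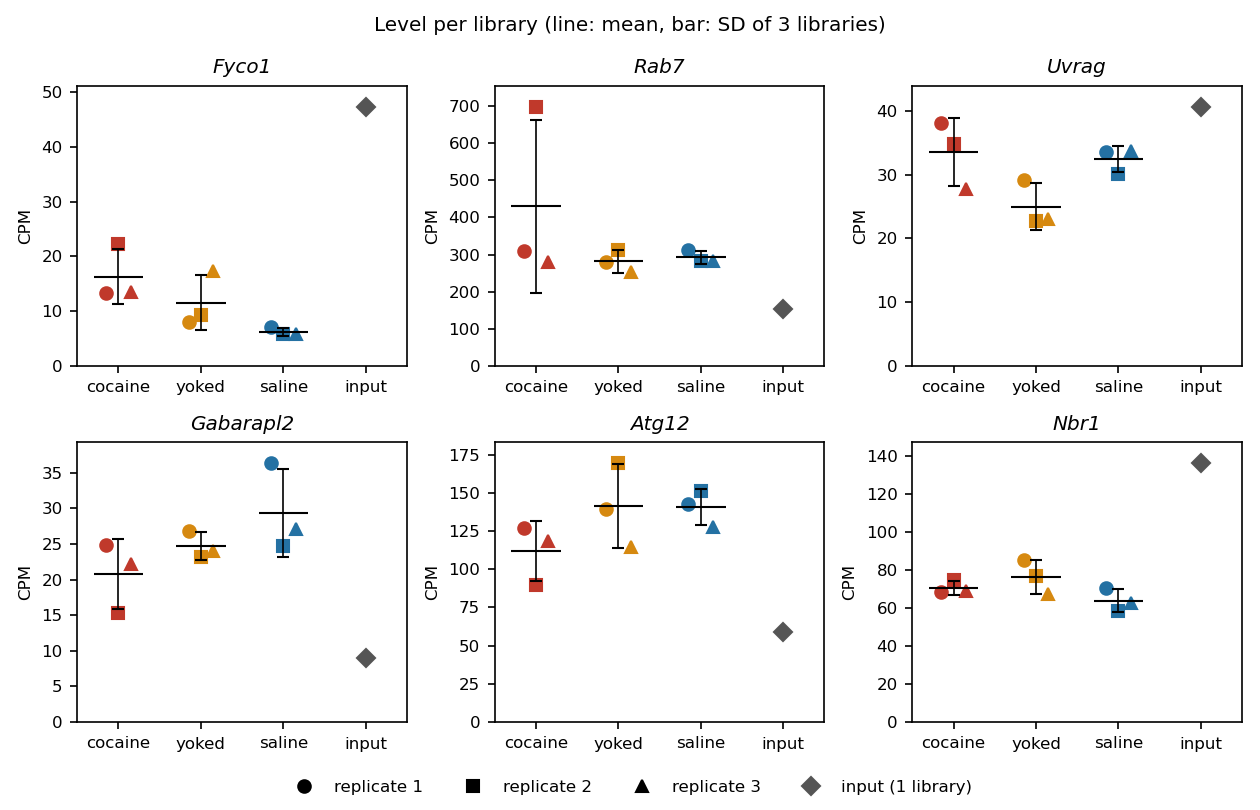
CPM per library for the 6 autophagy genes that were among the 3 with the smallest p in at least 1 treatment comparison, in cocaine, yoked, saline and input libraries (symbols give the replicate number, horizontal lines the mean and bars the SD of 3 libraries; the input is 1 library). Fyco1 separates from saline in the cocaine and yoked groups and is highest in the input at 47.3 CPM, and Rab7 at 699 CPM in cocaine library 2 stands above all other libraries.

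Cocaine and yoked libraries share their lane code, and their comparison sets self-administration of the drug beside its yoked control. None of the 39 genes passed (smallest adjusted p over all genes 0.9997, edgeR with Benjamini-Hochberg adjustment), and the share called over all genes was 0%. Rab7 and Uvrag, both higher after cocaine, had an unadjusted p under 0.05, which is 5.13% of these genes. It was 2.61% of all genes, with 1.63% higher and 0.974% lower. The numbers of positive and negative log2 fold changes were 20 and 19, with a median of 0.0029 for these genes and 0.0011 for all. Groups did not overlap for 0 of the 39 genes, where 6.78% of all genes did not (3.42% higher and 3.37% lower after cocaine).

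For Rab7 the log2 fold change of cocaine over yoked was 0.67 ± 0.28 (SE), with an adjusted p of 0.9997 in edgeR, and it was 0.13 without the libraries numbered replicate 2. Uvrag, a Beclin 1 partner that acts in autophagosome maturation and endosome traffic, measured 38.1, 34.8 and 27.7 CPM in cocaine libraries, against 29.2, 22.7 and 23.1 CPM in yoked and 33.5, 30.1 and 33.8 CPM in saline libraries. Cocaine library 3 lay between the yoked libraries, and the other cocaine libraries lay above them. Its log2 fold change of cocaine over yoked was 0.46 ± 0.21 (SE), with an adjusted p of 0.9997 in edgeR, and 0.30 without the libraries numbered replicate 2. Atg12 averaged 112 ± 19.7 CPM in cocaine libraries, against 141 ± 27.5 CPM in yoked ones (SD, n = 3 each). Its log2 fold change of −0.30 was −0.074 when the libraries numbered replicate 2 were left out. For Fyco1 the log2 fold change was 0.55 ± 0.34 (SE; 95% interval −0.19 to 1.28), which was 0.062 without the libraries numbered replicate 2. Without yoked library 3 it was 0.98, the highest over the omissions of single libraries, and none of these fits called it. All 4 initiation kinase genes had positive log2 fold changes, from 0.023 for Ulk1 to 0.17 for Rb1cc1, and all 3 cargo receptors negative ones, from −0.076 for Nbr1 to −0.029 for Sqstm1. None of these 7 genes passed.

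The comparison of yoked controls with saline shares the saline libraries with the first comparison and the yoked libraries with the second. Here too 0 of 39 genes passed, and 0% of all genes were called (smallest adjusted p over all genes 0.999, edgeR with Benjamini-Hochberg adjustment). Fyco1 alone had an unadjusted p under 0.05, which is 2.56% of these genes beside 2.18% of all (1.38% higher and 0.801% lower in yoked animals). Its log2 fold change of yoked over saline was 0.87 ± 0.35 (SE; 95% interval 0.13 to 1.62), with an unadjusted p of 0.0246 and an adjusted p of 0.999. Because Fyco1 was included with earlier results of these libraries known, this value is a description too. Without yoked library 3, at 17.3 CPM the highest of its group, the log2 fold change was 0.44. Without the libraries numbered replicate 2 it was 0.98. Markers of other cells had a higher mean in yoked animals than after saline for 10 of 10 of spiny projection neurons, 8 of 9 of oligodendrocytes, 4 of 7 of astrocytes, 5 of 8 of microglia, 5 of 6 of endothelial and mural cells, 0 of 5 of cortical glutamatergic neurons and 5 of 7 of other striatal interneurons, and 6 of 10 cholinergic markers did. Their part in this difference was not tested.

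Groups did not overlap for 4 of the 39 genes, 10.3% of them, where 7.05% of all genes did not. Fyco1 had higher levels in yoked animals (4.3% of all genes), and Atg13, Uvrag and Map1lc3b lower ones (2.74% of all genes). Uvrag had a log2 fold change of yoked over saline of −0.39 ± 0.21 (SE), with an adjusted p of 0.999 in edgeR. Map1lc3b, which encodes LC3B, measured 302, 305 and 247 CPM in yoked animals and 321, 327 and 321 CPM after saline, so the yoked libraries 1 and 2 were just below the saline ones. Nbr1 measured 84.8, 76.5 and 67.0 CPM in yoked animals and 70.2, 58.1 and 62.6 CPM after saline, with groups that overlapped at the yoked minimum. Its log2 fold change was 0.24 ± 0.17 (SE), with an adjusted p of 0.999 in edgeR. Over the 39 genes 16 log2 fold changes were positive and 23 negative, with a median of −0.051, beside −0.014 for all genes.

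A test for any difference among the 3 groups likewise called 0 of the 39 genes, and 0% of all genes, by edgeR. Fyco1 had the tenth smallest p of all genes in it (unadjusted p = 0.00422), where 2.80% of all genes had an unadjusted p under 0.05. Fyco1 was the only one of the 39 below that limit. It was included because of earlier results of these same libraries, so its rank here is a description and not independent evidence.

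**Figure D4:**
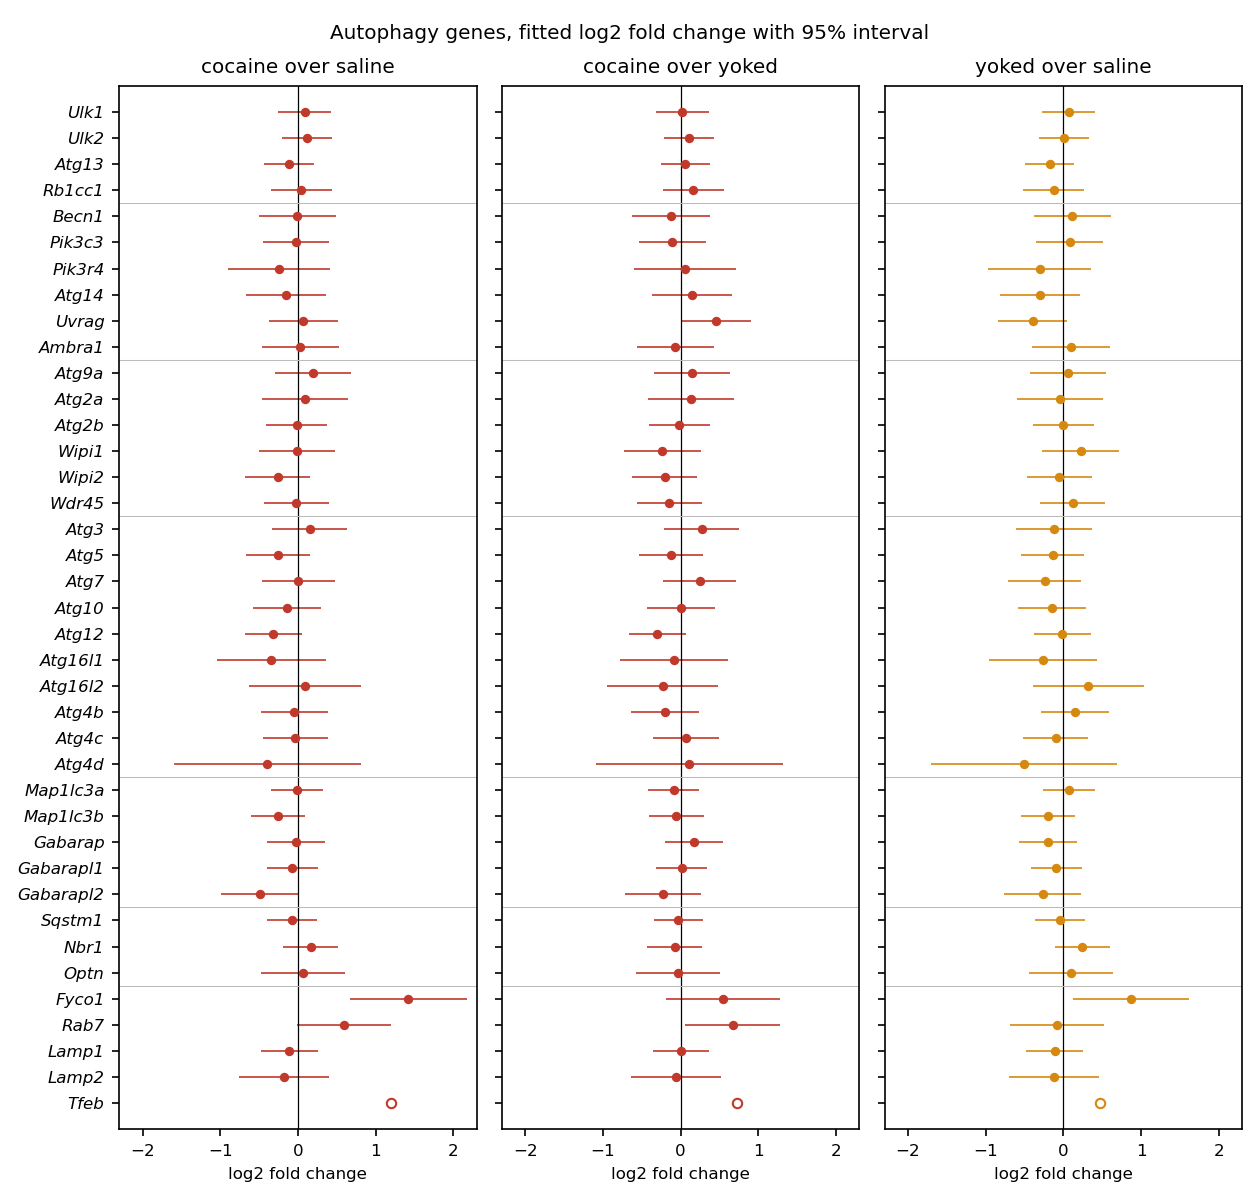
Fitted log2 fold change with its 95% interval for the 39 tested autophagy genes in 3 comparisons (columns), grouped by role between the grey lines (red: cocaine over saline and over yoked, orange: yoked over saline; open circles give Tfeb, with few reads, without its interval). Fyco1, at 1.42 over saline after cocaine and 0.87 in yoked animals, is farthest from 0 among the genes with intervals, whose points otherwise mostly lie within 0.5 of 0.

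Spread among libraries differed between the genes. Across the 9 immunopurified libraries the highest level exceeded the lowest 7.42-fold for Atg4d, 3.85-fold for Fyco1, 3.30-fold for Atg16l1, 2.78-fold for Rab7 and 2.38-fold for Gabarapl2. For Atg16l1 the low value was in cocaine library 2, at 6.78 CPM, while cocaine libraries 1 and 3 held 21.5 and 17.3 CPM. Lamp2, a lysosomal membrane protein, measured 84.5, 124 and 81.4 CPM in cocaine libraries, against 79.4, 162 and 74.0 CPM in yoked and 92.5, 135 and 107 CPM in saline libraries, with replicate 2 the highest in each group. Pik3r4 and Atg7 were likewise highest in saline library 2, at 38.2 and 86.5 CPM.

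Other genes of the pathway, in 6 lists with 94 tested genes, gave 0 calls in each comparison by edgeR. At an unadjusted p under 0.05 there were 0 higher and 4 lower after cocaine than after saline, 4.26% of the 94 where it was 5.28% of all genes. The numbers were 1 higher and 0 lower for cocaine against yoked (1.06%, beside 2.61% of all) and 0 higher and 1 lower for yoked against saline (1.06%, beside 2.18%). Median log2 fold changes over the 94 genes were −0.10, −0.040 and −0.0998 in these comparisons. The vacuolar ATPase, the proton pump that acidifies lysosomes and synaptic vesicles, had all 15 tested genes on the lower side after cocaine than after saline (median log2 fold change −0.28), 10 of 15 on the lower side against yoked animals (−0.12) and 14 of 15 in yoked animals against saline (−0.15). No single gene of it passed, and without the libraries numbered replicate 2 the numbers on the lower side were 13, 7 and 14, with medians of −0.097, 0.0047 and −0.12. Summed over the 15 genes the level was 3548, 3536 and 3481 CPM in cocaine libraries 1 to 3, while yoked libraries held 3538, 4573 and 3277 CPM and saline libraries 3684, 5035 and 3840 CPM. Saline library 2 was the highest, and all saline libraries lay above all cocaine libraries. The gap was narrowest between saline library 1 and cocaine library 1, at 3684 and 3548 CPM. Gene by gene, these groups did not overlap for 4 of the 15, where 10.3% of all genes did not. Without saline library 2 the median against saline was −0.12 after cocaine and −0.058 in yoked animals, with 10 and 11 genes on the lower side.

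Within these lists the smallest p for cocaine against saline belonged to Atp6ap2, an accessory subunit of the vacuolar ATPase, at 117 ± 19.5 CPM in cocaine libraries, against 172 ± 42.2 CPM in saline libraries (SD, n = 3 each). Atp6v1h, its regulatory H subunit, followed with 83.8 ± 4.63 CPM in cocaine libraries, against 113 ± 24.0 CPM in saline libraries (SD, n = 3 each). For cocaine against yoked it was Tfe3, a transcription factor related to Tfeb, at 80.0, 57.2 and 47.3 CPM in cocaine libraries, against 42.2, 42.6 and 42.7 CPM in yoked ones. The groups did not overlap for Tfe3, and its adjusted p was 0.9997 in edgeR. Calcoco1, a receptor for endoplasmic reticulum and Golgi cargo, came next and measured 195 CPM in cocaine library 2 but 67.5 and 65.1 CPM in the others. For yoked against saline the smallest p were those of Park2, the ubiquitin ligase Parkin, at 30.1 ± 9.08 CPM in yoked animals and 46.7 ± 19.7 CPM after saline, and Vps18, a tethering subunit for fusion with lysosomes, at 18.9 ± 1.42 CPM in yoked animals and 26.2 ± 9.03 CPM after saline (SD, n = 3 each). None of these 6 genes passed. When the libraries numbered replicate 2 were left out, log2 fold changes were −0.40 for Atp6ap2 (113 CPM after cocaine, 147 CPM after saline), −0.25 for Atp6v1h, 0.56 for Tfe3, −0.048 for Calcoco1 (0.71 with all libraries), −0.50 for Park2 (24.9 CPM in yoked animals, 35.6 CPM after saline) and −0.17 for Vps18 (19.0 CPM in yoked animals, 21.4 CPM after saline). Against the input, where 12.1% of all measured genes were at least 2-fold higher in all 3 saline libraries and 23.1% lower, the lists differed in their counts. For the vacuolar ATPase 6 of 15 genes were higher and 0 lower (median log2 ratio 1.01), and for lysosomal enzymes and membrane proteins 5 of 21 were higher and 0 lower (1.04). Of the selective receptors 2 of 12 were higher and 0 lower (0.37), and of the genes for mTORC1 and AMPK control, which set the rate of autophagy by nutrient and energy state, 3 of 16 were higher and 1 lower (0.089). Of the genes for autophagosome maturation and fusion 0 of 15 were higher and 2 lower (−0.019), and of further core genes and transcription factors 1 of 15 was higher and 3 were lower (0.20).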

How the data were processed

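The authors deposited raw counts of reads for each gene symbol in a table for each library. The submitters' processing notes list STAR 2.0.0e, HTSeq and mm10. Annotation, strandedness and read filters are not given in the sources used here, so reads of overlapping genes (for example Atg4d with Kri1, Map1lc3b with Zcchc14 or Becn1 with Cntd1) may not be told apart. Reads not assigned to 1 gene, among them 35.4 to 57.1% per library that aligned to several places, and a row that names no gene, with at most 1 count per library, were left out. The Poisson intervals of input levels cover counting error only, whereas the intervals of fold changes come from the edgeR fit and include the spread between libraries.

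CPM were computed with the sum of gene counts as library size. In R 4.3.3, edgeR 4.0.16 (robust quasi-likelihood test, TMM scaling, minimum count 10, minimum total 15) was fitted to all 9 immunopurified libraries, with 6 residual degrees of freedom; p-values were adjusted over 14989 genes by the Benjamini-Hochberg method and called under 0.05. DESeq2 1.42.0 was an alternative. The edgeR step and the input ratio were tested on simulated data. Input ratios used genes with at least 20 counts in the input or in the mean saline library. Where a library had fewer than 3 counts, 3 were used to decide whether its ratio passed 2-fold.

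The genes and lists were chosen with earlier results of these data known. Named with full values are Fyco1, in each treatment comparison the 3 with the smallest p, the 5 highest and 5 lowest against the input and the 2 smallest p among the other pathway lists; further genes are named as examples of their role. Of 97 genes in those lists 95 were in the files. RefSeq sequences and positions are of GRCm38.p6, the assembly of mm10.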

Additional observations from a re-analysis of the deposited data

How the results depend on the processing

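No treatment comparison gave a call for an autophagy gene under another scaling (DESeq2-type size factors in edgeR), in DESeq2, with a replicate block, without any single library or without the libraries numbered replicate 2. Without a filter on low counts, edgeR called 60 genes in the comparison of cocaine with saline, 27 with yoked animals, 18 between yoked and saline animals and 98 for any difference, and 1 autophagy gene, Fyco1, for the first (log2 fold change 1.45, adjusted p = 0.0159) and the last of these (adjusted p = 0.0339); the cause was not tested. Rab7 for cocaine against saline turned to −0.023 without replicate 2, within a range of −0.023 to 0.84 over the omissions. Calcoco1 for cocaine against yoked turned to −0.048 without replicate 2, an alternative chosen after seeing the data. Fyco1 ranged from 1.04 to 1.56 for cocaine against saline, from 0.062 to 0.98 for cocaine against yoked and from 0.44 to 1.07 for yoked against saline.

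Same-numbered libraries deviated together with correlations of 0.0957 to 0.196 across genes, with 3 of the 9 pairs under 0.1. All of these were above the correlations of differently numbered libraries, the highest of which was 0.0781. No label says that a number marks a shared animal or day. Same-numbered libraries were therefore not treated as pairs in the main fit, and a replicate block was fitted as an alternative. With the replicate block the log2 fold change of Fyco1 was 1.40 (adjusted p = 0.710), 0.57 and 0.83, and no call changed.

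Against the input, 4 genes were at least 2-fold higher and 1 lower when all 9 immunopurified libraries had to show it, and 1 was lower with a minimum of 100 counts, because Tfeb was then left out. Over the omissions of single saline libraries 8 to 10 were higher and 2 to 3 lower, and the median log2 ratio was 0.48 to 0.69. Shares over all genes are not given for these settings, so these counts show only how the selection moves with the setting. The number of vacuolar ATPase genes on the lower side, an alternative chosen after seeing the data, ranged from 10 to 15 for cocaine against saline, 7 to 13 for cocaine against yoked and 11 to 15 for yoked against saline. Low counts limit Tfeb and Atg4a, and 3 libraries per group limit the rest.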
